A study of Mus musculus with 16 samples.

Results

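*Olig1*, *Olig2*, *Pdgfra*, *Cspg4*, *Sox10* and *Mbp*, 6 genes of the oligodendroglial and Schwann cell lineages, were read from a table of 46320 genes by their symbols. All 6 passed the filter on low counts that left 19964 genes for testing. The study asked how loss of the RNA-binding protein hnRNP R alters the RNA of the cell bodies and the axons of mouse motoneurons. Motoneurons of embryonic day 13 lumbar spinal cord, enriched on a p75NTR antibody, were plated on one side of microfluidic chambers, and RNA was taken from the plated side (somatodendritic compartment) and from the side into which axons grow (axonal compartment). Embryos were either wild type (+/+) or carried a CRISPR/Cas9 deletion in *Hnrnpr* (Hnrnpr-/-), a line backcrossed to C57Bl/6, so that every cell of the embryo lacked the gene. Each genotype and compartment had 4 libraries, 16 in all. Both compartments received CNTF at 5 ng/ml, in medium with 2% horse serum. The axonal compartment alone also received BDNF at 20 ng/ml. Per the study's methods, axonal samples were also amplified in a larger reaction volume and with more PCR cycles than somatodendritic ones. Compartment therefore cannot be told apart from BDNF or from library preparation.

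Oligodendrocyte precursors and motoneurons of the ventral spinal cord descend from the same progenitors, which express the transcription factor Olig2. Precursors carry the PDGF receptor alpha and the proteoglycan NG2, and they need the transcription factor Sox10 to become myelin-forming cells that make myelin basic protein (Mbp). Schwann cells, the myelinating glia of nerves, arise from the neural crest and also use Sox10 and Mbp, whereas Olig1 and Olig2 belong to the oligodendroglial lineage, and Pdgfra and NG2 are also known from fibroblasts and pericytes, respectively.

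*Olig1* lies on GRCm39 chromosome 16, 91066657 to 91068827 on the forward strand, close to *Olig2* at 91016745 to 91025567 on the same strand. *Pdgfra* spans 75311988 to 75358867 of chromosome 5 and *Cspg4*, the gene of NG2, 56772388 to 56807154 of chromosome 9, both on the forward strand. *Sox10* lies on the reverse strand of chromosome 15 at 79039113 to 79048690. Values per gene are sums over all annotated exons, so transcripts of one gene are not told apart. The non-coding *Gm52261* overlaps the end of *Olig2* on the opposite strand, *Odf3l1* overlaps *Cspg4* on the opposite strand, *Mir7025* lies within *Pdgfra* and *LOC118568383* within *Mbp*. Since the library kit does not mark the strand, reads of such overlapping genes cannot be told apart. The counts listed for the overlapping partners stayed low, at most 608 for *Gm52261*, 38 for *Odf3l1*, 62.5 for *Mir7025* and 18 for *LOC118568383* in any library.

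The 250 bases before the annotated start are printed for *Olig2* and *Pdgfra*, which varied together with *Sox10* between libraries, and for *Cspg4*, which did not, from RefSeq's promoter table (GRCm38.p6). The windows of the other 3 members are not shown. Capitals mark a match to ACAAAG or ACAATG on either strand, letters bound by SOX proteins, or to the E-box CANNTG, letters bound by bHLH proteins such as Olig2.
*Olig2*, chr16:91225300-91225549, forward strand: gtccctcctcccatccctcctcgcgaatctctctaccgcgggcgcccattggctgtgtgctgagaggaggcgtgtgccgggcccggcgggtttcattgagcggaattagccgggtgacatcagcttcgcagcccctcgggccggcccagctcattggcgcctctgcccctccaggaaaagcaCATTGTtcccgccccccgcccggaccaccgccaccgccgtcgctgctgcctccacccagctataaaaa
*Pdgfra*, chr5:75152001-75152250, forward strand: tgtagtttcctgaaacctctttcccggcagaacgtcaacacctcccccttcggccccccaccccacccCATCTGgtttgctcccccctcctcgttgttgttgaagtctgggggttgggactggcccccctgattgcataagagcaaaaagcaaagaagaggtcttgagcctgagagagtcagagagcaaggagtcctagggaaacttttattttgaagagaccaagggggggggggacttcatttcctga
*Cspg4*, chr9:56864854-56865103, forward strand: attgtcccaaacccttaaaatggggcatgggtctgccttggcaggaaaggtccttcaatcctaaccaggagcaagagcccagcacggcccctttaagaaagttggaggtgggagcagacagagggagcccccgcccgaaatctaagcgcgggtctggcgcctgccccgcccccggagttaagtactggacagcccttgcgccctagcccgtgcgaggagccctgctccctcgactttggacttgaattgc
The window of *Olig2* held 1 SOX match and no E-box, that of *Pdgfra* 1 E-box and no SOX match, and that of *Cspg4* neither. Over 32851 promoter windows of this length, 25.2% held a SOX match and 66.2% an E-box.

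Libraries held 22024923 to 34864151 counts. The deleted gene matched the labels, since *Hnrnpr* in Hnrnpr-/- libraries was at 0.423% of its +/+ level in the somatodendritic and at 0.413% in the axonal compartment (log2 fold change of -7.88, SE 0.47, and of -7.91, SE 0.47, adjusted p = 6.78e-07 and 5.86e-07, edgeR quasi-likelihood test). The defining markers of motoneurons were low. *Chat*, the enzyme of acetylcholine synthesis, did not exceed 1.31 CPM (counts scaled by library size and TMM factor) in any library, and *Mnx1*, a motoneuron transcription factor, was listed at 0 in 15 of 16. Summed over 9 motoneuron markers, levels were 20.3 to 38.0 CPM in somatodendritic and 3.45 to 17.1 CPM in axonal libraries, below the summed level of the 6 lineage genes in every library (218 to 1750 CPM). In RNA from whole compartments, a smaller number of cells of a type and less RNA per cell cannot be told apart.

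The transcription factor genes *Olig1* and *Olig2* were detected in every library. *Olig1* was at 213, 140, 154 and 79.8 CPM in +/+ somatodendritic replicates 1 to 4 and at 118, 212, 174 and 196 CPM in those of Hnrnpr-/-. In axons it was at 712, 394, 461 and 147 CPM in +/+ and at 208, 773, 271 and 778 CPM in Hnrnpr-/-. Most axonal libraries lay above all somatodendritic ones of the same genotype, but +/+ axonal replicate 4 and Hnrnpr-/- axonal replicate 1 fell within their range.

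*Olig2* was at 52.4, 29.4, 44.4 and 21.5 CPM in +/+ and at 35.5, 56.4, 53.4 and 60.6 CPM in Hnrnpr-/- somatodendritic libraries. The axonal values were 163, 52.8, 97.9 and 24.3 CPM in +/+ and 19.6, 188, 71.3 and 177 CPM in Hnrnpr-/-. The low libraries were those that were low for *Olig1*, and the compartments overlapped in both genotypes. *Olig1* CPM were 3.46 to 4.75 times those of *Olig2* in +/+ somatodendritic libraries and 3.81 to 10.6 times in Hnrnpr-/- axonal libraries, the widest range of the 4 groups.

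*Sox10*, the regulator that both glial lineages use, was at 37.3, 21.1, 20.9 and 6.71 CPM in +/+ and at 6.79, 49.0, 31.8 and 54.4 CPM in Hnrnpr-/- somatodendritic libraries. In axonal libraries it was at 75.4, 25.1, 33.0 and 4.62 CPM in +/+ and at 1.66, 107, 17.0 and 116 CPM in Hnrnpr-/-. The lowest of these values rested on 57 counts and the highest on 3504. The gene therefore ranged over 70.1-fold among 4 libraries of one group, Hnrnpr-/- axons, where the median gene ranged over 2.07-fold and 0.512% of genes had a larger range.

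*Pdgfra*, the receptor through which PDGF-A acts on precursors, was at 155, 75.4, 78.1 and 46.6 CPM in +/+ and at 70.4, 136, 124 and 127 CPM in Hnrnpr-/- somatodendritic libraries. In axons it was at 186, 36.9, 39.9 and 10.6 CPM in +/+ and at 6.97, 276, 26.4 and 105 CPM in Hnrnpr-/-. A single +/+ axonal library, replicate 1, lay far above the other 3, and replicate 2 of Hnrnpr-/- axons held the highest value of all. The ratio of highest to lowest was 17.4 in +/+ axons and 39.6 in Hnrnpr-/- axons, against 3.33 and 1.93 in the somatodendritic groups.

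*Mbp*, which encodes the protein that compacts myelin, was at 254, 52.9, 94.4 and 41.1 CPM in +/+ and at 45.7, 299, 111 and 395 CPM in Hnrnpr-/- somatodendritic libraries. In axonal libraries it was at 75.9, 18.6, 52.8 and 12.2 CPM in +/+ and at 10.8, 321, 35.1 and 229 CPM in Hnrnpr-/-. Replicate 1 was highest and replicate 4 lowest in both +/+ compartments, whereas in Hnrnpr-/- replicate 1 was lowest and replicates 2 and 4 were highest.

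*Cspg4* departed from this order in axons and in Hnrnpr-/-, but not in +/+ somatodendritic libraries. It was at 40.6, 32.7, 25.7 and 22.2 CPM in +/+ and at 36.3, 28.8, 27.0 and 42.4 CPM in Hnrnpr-/- somatodendritic libraries. Within each of these groups it had the narrowest range of any member (highest over lowest 1.83 and 1.57). Its axonal values were 102, 30.1, 48.9 and 168 CPM in +/+ and 78.8, 81.1, 36.6 and 158 CPM in Hnrnpr-/-. Replicate 4 was the highest axonal library of both genotypes, and in +/+ this was the library lowest for the 5 other members.

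**Figure D1:**
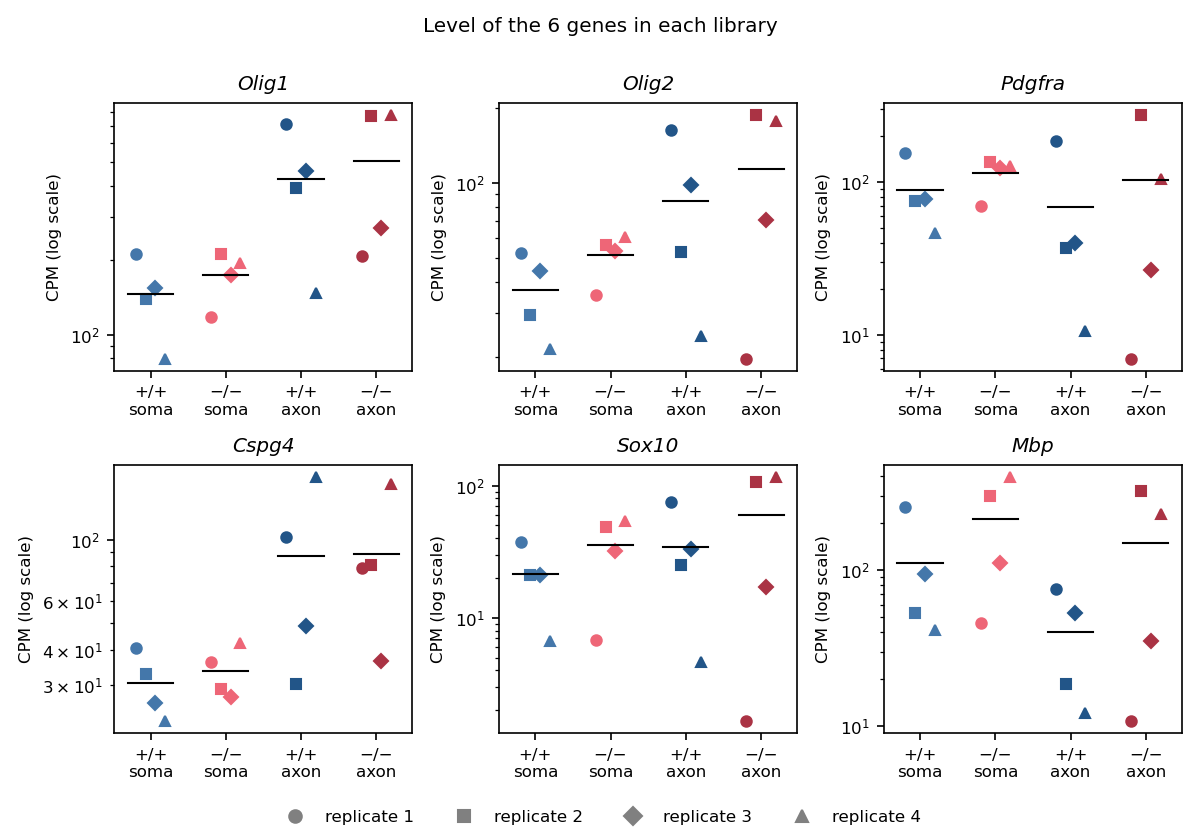
Level of each of the 6 genes in CPM (vertical axis, log scale, a separate range for each gene) in the 4 groups of 4 libraries. Points are libraries, marker shapes are replicate numbers and black lines are group means; replicate 4 is lowest in both +/+ groups and replicate 1 in both Hnrnpr-/- groups for all genes but *Cspg4*.

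Levels of different genes were compared per kilobase of exon. *Olig1* was the most abundant in every group, with means of 67.5 ± 25.2 and 80.6 ± 18.9 CPM per kb in +/+ and Hnrnpr-/- somatodendritic libraries and of 197 ± 107 and 234 ± 143 CPM per kb in axonal libraries (SD, n = 4). In +/+ somatodendritic libraries it was followed by *Olig2* at 13.8 ± 5.22, *Mbp* at 13.1 ± 11.6, *Pdgfra* at 9.56 ± 5.00, *Sox10* at 7.92 ± 4.61 and *Cspg4* at 3.76 ± 1.01 CPM per kb. In +/+ axons the order below *Olig1* was *Olig2* (31.4 ± 22.5), *Sox10* (12.7 ± 11.0), *Cspg4* (10.8 ± 7.69), *Pdgfra* (7.36 ± 8.55) and *Mbp* (4.71 ± 3.53 CPM per kb), with *Mbp* moving from the third to the last place. Below *Olig1*, no neighbours in these +/+ orders differed by more than the larger SD of the pair. In Hnrnpr-/- somatodendritic libraries *Cspg4* was last at 4.18 ± 0.884 CPM per kb, and in axons it was at 11.0 ± 6.29 CPM per kb, which differed by less than the SDs from *Pdgfra* at 11.2 ± 13.2.

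*Olig1* and *Cspg4* were higher in axonal than in somatodendritic RNA of +/+ cultures, and the other 4 members did not pass the test. *Olig1* rose by a log2 fold change of 1.55 (SE 0.49, adjusted p = 0.0137) and *Cspg4* by 1.53 (SE 0.48, adjusted p = 0.0135; edgeR quasi-likelihood test adjusted by Benjamini and Hochberg across the 19964 genes, threshold 0.05). These are 2 of 6 members higher and 0 lower, where 30.1% of all genes were called higher and 27.4% lower. The values were 1.19 (SE 0.60, adjusted p = 0.104) for *Olig2*, 0.68 (SE 0.98, adjusted p = 0.57) for *Sox10*, -0.38 (SE 0.88, adjusted p = 0.732) for *Pdgfra* and -1.47 (SE 0.95, adjusted p = 0.195) for *Mbp*. In none of the 6 did the 4 axonal and the 4 somatodendritic libraries separate without overlap, although 52.4% of genes did.

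The same genes passed in Hnrnpr-/- cultures, *Olig1* with a log2 fold change of 1.54 (SE 0.49, adjusted p = 0.0151) and *Cspg4* with 1.40 (SE 0.48, adjusted p = 0.022). There too 2 of 6 members were higher and 0 lower, against 27.5% and 26.8% of all genes. *Olig2* had 1.15 (SE 0.60, adjusted p = 0.12), *Sox10* 0.77 (SE 0.98, adjusted p = 0.526), *Pdgfra* -0.14 (SE 0.88, adjusted p = 0.904) and *Mbp* -0.51 (SE 0.93, adjusted p = 0.66). Again no member separated without overlap, where 51.4% of genes did. Single libraries decided some of these calls. In +/+, *Olig1* fell to 1.18 (adjusted p = 0.0542) without axonal replicate 1 and *Cspg4* to 1.04 (adjusted p = 0.057) without axonal replicate 4, the library in which it was highest. In Hnrnpr-/-, *Olig1* lost its call without axonal replicate 2 (1.25, adjusted p = 0.0505) or axonal replicate 4 (1.25, adjusted p = 0.0531), and *Cspg4* without axonal replicate 4 (0.96, adjusted p = 0.101) or somatodendritic replicate 2 (1.36, adjusted p = 0.0518) or 3 (1.30, adjusted p = 0.0599). *Olig2* passed in +/+ without +/+ axonal replicate 4 (1.55, adjusted p = 0.035) or Hnrnpr-/- axonal replicate 1 (1.18, adjusted p = 0.0469), and in Hnrnpr-/- without the latter (1.49, adjusted p = 0.0221).

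Libraries of the same genotype and replicate number deviated together, so the comparison was also made within these numbered pairs. This fit, with the replicate number within genotype as a block, was added after the data were seen. In it *Mbp*, which did not pass in the comparison of group means, was lower in axons in both genotypes. Its log2 fold changes were -1.46 (SE 0.33, adjusted p = 0.00443, edgeR) in +/+ and -1.11 (SE 0.33, adjusted p = 0.0185, edgeR) in Hnrnpr-/-. The axonal level of *Mbp* was below the somatodendritic one in all 4 +/+ pairs, with ratios of 0.299, 0.351, 0.56 and 0.296 for replicates 1 to 4, and in 3 of 4 Hnrnpr-/- pairs, with ratios of 0.236, 1.07, 0.316 and 0.58. *Olig1* was higher in axons in 8 of 8 pairs, by 1.56 to 3.98 times, and kept its call in the blocked fit in both genotypes (1.43, SE 0.26, adjusted p = 0.0016, and 1.33, SE 0.26, adjusted p = 0.00258). *Cspg4* was higher in 7 of 8 pairs, the exception being +/+ replicate 2 at a ratio of 0.921, and also kept its calls (1.25, SE 0.43, adjusted p = 0.0329, and 1.24, SE 0.42, adjusted p = 0.0295). *Olig2* was higher in 7 of 8 pairs, *Sox10* in 5 of 8 and *Pdgfra* in 2 of 8, and none of these 3 passed in the blocked fit. Relative to *Sox10* of the same library, *Mbp* was at 2.51 to 6.81 times in +/+ somatodendritic and at 0.742 to 2.64 times in +/+ axonal libraries (ratios of CPM). In Hnrnpr-/- these ratios overlapped more widely, at 3.48 to 7.27 in somatodendritic and 1.97 to 6.49 in axonal libraries.

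**Figure D2:**
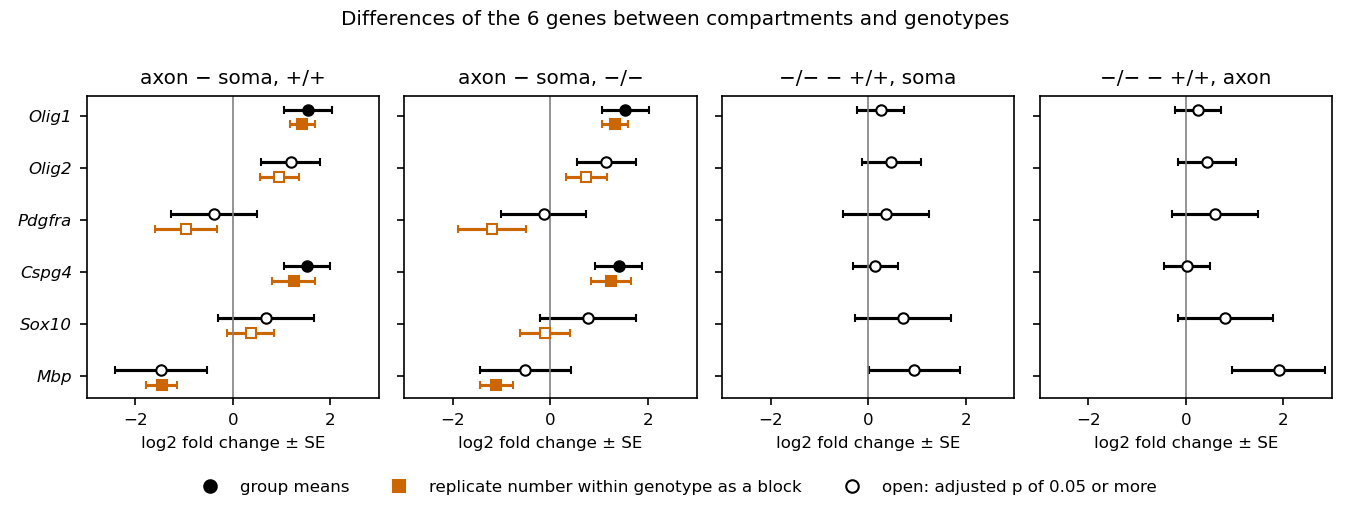
Log2 fold change with its standard error (horizontal axis) of each gene for the axonal against the somatodendritic compartment in each genotype and for Hnrnpr-/- against +/+ in each compartment. Black circles are the comparison of group means, orange squares the comparison within numbered pairs (compartments only), and filled symbols have an adjusted p below 0.05; *Olig1* and *Cspg4* are filled on the higher side in both genotypes, and *Mbp* on the lower side within pairs only.

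The level in one compartment followed that in the other for 5 of the 6 members. Over the 8 numbered pairs, log2 CPM in somatodendritic and axonal RNA correlated with a Pearson's r of 0.954 for *Mbp* (exact permutation p = 0.000446, adjusted p = 0.00535 over the 12 relations computed), 0.944 for *Sox10* (p = 0.00159, adjusted p = 0.00669, exact permutation test) and 0.900 for *Olig1* (p = 0.00181, adjusted p = 0.00669, exact permutation test). For *Olig2*, r was 0.827 (p = 0.0122, adjusted p = 0.0205, exact permutation test) and for *Pdgfra* 0.816 (p = 0.0182, adjusted p = 0.0218, exact permutation test). Spearman's rho was 0.929 for *Mbp* (p = 0.00223, adjusted p = 0.00669, exact permutation test), 0.881 for *Sox10* and *Pdgfra* (p = 0.00724, adjusted p = 0.0145, exact permutation test) and 0.833 for *Olig1* and *Olig2* (p = 0.0154, adjusted p = 0.0205, exact permutation test). *Cspg4* showed no such relation, with an r of 0.18 (p = 0.659, adjusted p = 0.719, exact permutation test) and a rho of 0.119 (p = 0.793, adjusted p = 0.793, exact permutation test). Without the 2 pairs farthest from the median somatodendritic level, r was 0.935 for *Mbp*, 0.889 for *Olig2*, 0.798 for *Sox10*, 0.728 for *Pdgfra*, 0.696 for *Olig1* and 0.55 for *Cspg4*. The median gene had an r of 0.215, and 0.0952% of genes had an r as high as *Mbp*, 0.155% as high as *Sox10*, 0.611% as *Olig1*, 1.98% as *Olig2*, 2.27% as *Pdgfra* and 53.1% as *Cspg4*. The 4 pairs of one genotype were too few for a value of r within each genotype, so the 8 pairs pool both. The pairing itself was taken from correlations between compartments in these same data, so these p-values describe the relation and are no independent test of it. The 5 members also shared their low libraries, so their relations are not separate results.

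**Figure D3:**
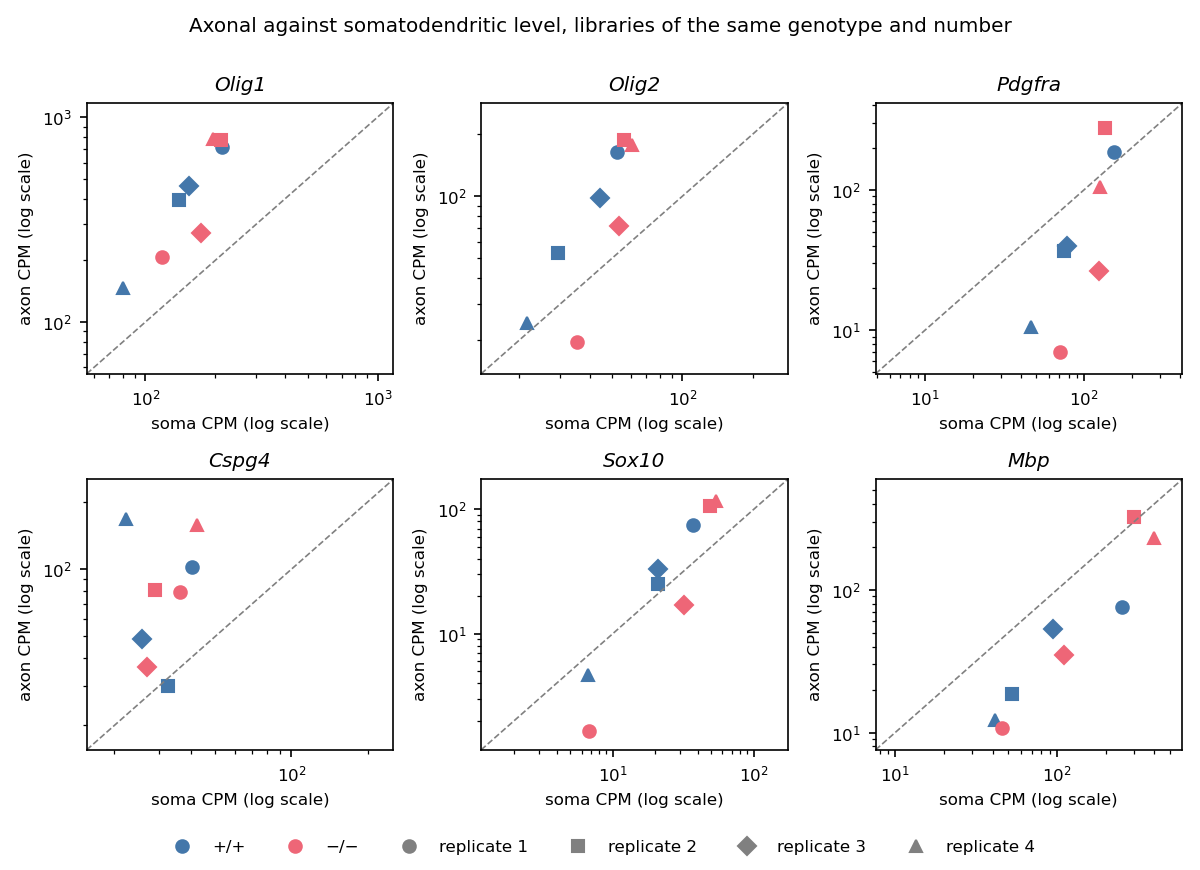
Axonal against somatodendritic level (CPM, both axes on log scales) for the 8 pairs of libraries with the same genotype and replicate number; colours are genotypes, marker shapes replicate numbers and the dashed line marks equal levels. Points of *Olig1* lie above the line in 8 of 8 pairs and those of *Mbp* below it in all but 1, and every member except *Cspg4* shows a rising relation.

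No member passed the test between genotypes. In the somatodendritic compartment the log2 fold change of Hnrnpr-/- against +/+ was 0.26 for *Olig1* (95% interval -0.76 to 1.27), 0.48 for *Olig2* (-0.80 to 1.75), 0.36 for *Pdgfra* (-1.51 to 2.24) and 0.15 for *Cspg4* (-0.85 to 1.15). It was 0.72 for *Sox10* (-1.37 to 2.81) and 0.94 for *Mbp* (-1.05 to 2.93). All 6 had an adjusted p of 1.0, and all 6 estimates were above 0 with a median of 0.42, against 0.0017 over all genes. Over all genes tested, 0.00501% were called, a single gene, and 120 had an unadjusted p below 0.05. Genotypes overlapped for every member, where 1.58% of genes had no overlap.

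In axons the difference between genotypes was 0.24 for *Olig1* (95% interval -0.77 to 1.26), 0.44 for *Olig2* (-0.84 to 1.71), 0.60 for *Pdgfra* (-1.28 to 2.48) and 0.02 for *Cspg4* (-0.97 to 1.02). For *Sox10* it was 0.81 (-1.28 to 2.90) and for *Mbp* 1.90 (-0.14 to 3.95), the largest of the members, with group means of 149 ± 151 CPM in Hnrnpr-/- and 39.9 ± 29.9 CPM in +/+ (SD, n = 4). Hnrnpr-/- replicates 2 and 4 lay above all +/+ libraries for *Mbp* and replicate 1 below them, and its value was 1.20 without Hnrnpr-/- axonal replicate 2 and 2.42 without +/+ axonal replicate 1. The adjusted p was 1.0 for each of the 6, 0.01% of genes were called, 775 genes had an unadjusted p below 0.05, and 0.606% had no overlap, none of them a member. The intervals of *Pdgfra*, *Sox10* and *Mbp* reached past a log2 difference of 2, which is 4-fold, in both compartments. Without Hnrnpr-/- axonal replicate 2 the value of *Pdgfra* turned to -0.57, and without +/+ axonal replicate 1 it was 1.83. The genotype difference did not pass a test of being unequal between the compartments for any member (largest value 0.96, SE 1.31, for *Mbp*, adjusted p = 1.0, edgeR), nor for any gene (0.0% called).

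Genes of the oligodendroglial lineage beyond the members followed the same libraries. Their summed level over 28 genes was 858, 482, 575 and 234 CPM in +/+ and 266, 1310, 722 and 1370 CPM in Hnrnpr-/- somatodendritic libraries. In axonal libraries it was 819, 554, 577 and 273 CPM in +/+ and 204, 1250, 444 and 1220 CPM in Hnrnpr-/-. The most abundant were *Cnp*, an enzyme of myelin-forming cells, at a mean of 155 CPM over the 16 libraries, *Gpr17*, a receptor of cells on the way from precursor to oligodendrocyte, at 82.3 CPM and *Bcas1*, which marks early myelin-forming cells, at 79.8 CPM. *Bcas1* went from 2.67 CPM in Hnrnpr-/- axonal replicate 1 to 201 CPM in axonal replicate 2 of the same genotype. Of genes of mature myelin sheaths, *Mog* at no more than 0.754 CPM, *Mobp* at no more than 1.54 CPM and *Opalin*, listed at 0 in 12 libraries, were near 0. Not all myelin genes were low, since *Mag* reached 35.5 CPM in Hnrnpr-/- somatodendritic replicate 4, although it was listed at 0 in 1 library.

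Between compartments this list showed no common direction. In +/+, 3 of 27 genes tested (11.1%) were higher in axons, 3 were lower and 21 did not pass, against 30.1% of all genes higher and 27.4% lower, with a median log2 fold change of 0.02 (0.07 over all genes). Those higher were *Sox6* (1.75, SE 0.58, adjusted p = 0.0177, edgeR) and *Tcf7l2* (1.13, SE 0.44, adjusted p = 0.0366, edgeR), transcription factors of the lineage, and *Aspa* (1.53, SE 0.55, adjusted p = 0.0278, edgeR), an enzyme that cleaves N-acetylaspartate. *Zfp536* was lower (-0.65, SE 0.23, adjusted p = 0.0254, edgeR), and so were *Mog* and *Ermn*, which were below 1 CPM in every library and are named after their values were seen. In Hnrnpr-/-, *Mal* was higher (3.22, SE 1.16, adjusted p = 0.0292, edgeR), *Ermn* and *Zfp536* were lower and 24 of 27 did not pass, against 27.5% of all genes higher and 26.8% lower, with a median of -0.33 (-0.0028 over all genes). *Mal* rested on Hnrnpr-/- axonal replicate 4, at 11.4 CPM, while the other 3 libraries of that group were at 0.60 to 1.02 CPM. Between genotypes 0 of 27 passed in either compartment, with 23 estimates above 0 and a median of 0.55 in somatodendritic RNA and 21 above 0 and a median of 0.40 in axons.

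**Figure D4:**
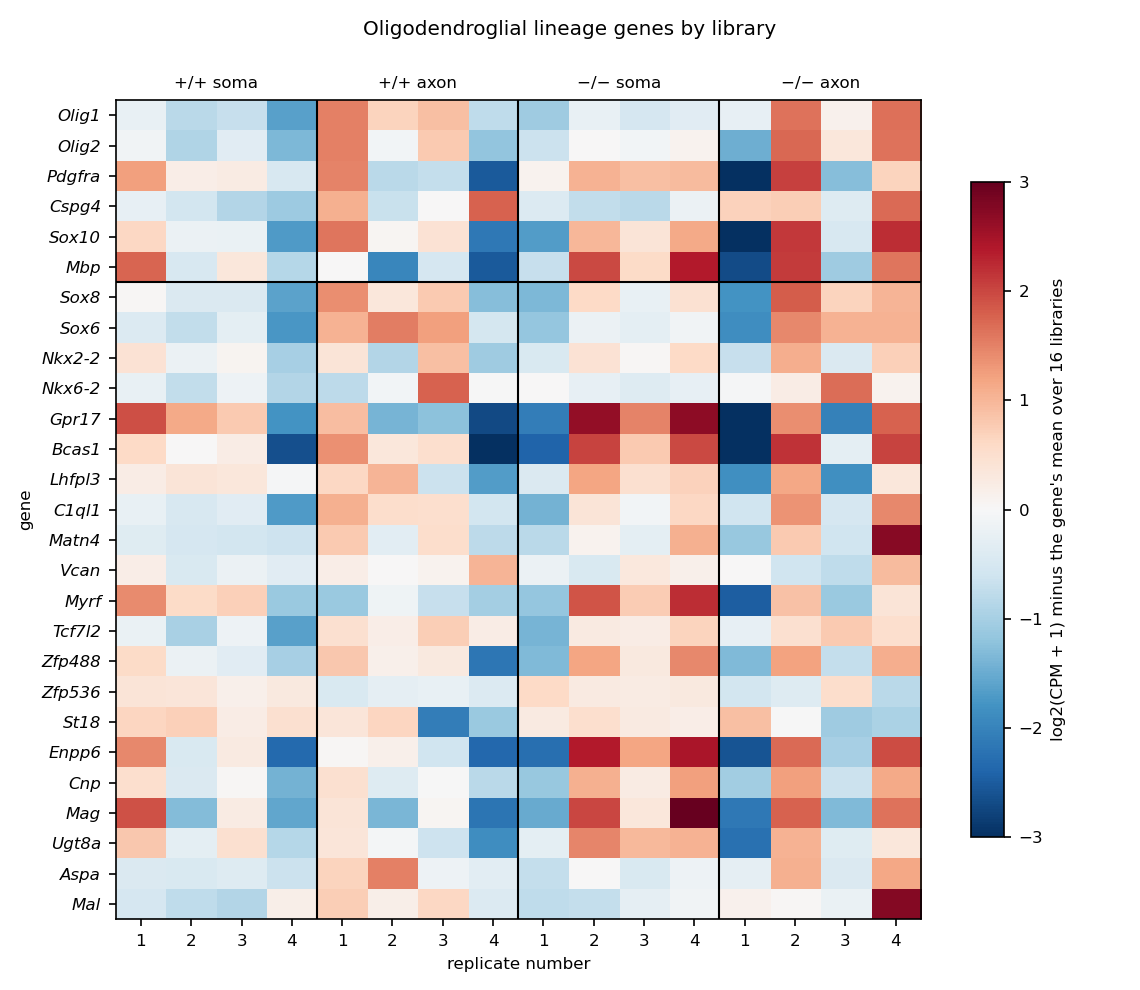
Log2(CPM + 1) minus the mean of each gene over 16 libraries (colour) for the 6 genes (above the line) and other oligodendroglial lineage genes with a mean of at least 1 CPM (below it), by library (columns, replicate numbers within each group). Blue columns in +/+ replicate 4 and Hnrnpr-/- replicate 1 of both compartments run through most rows, as do red columns in Hnrnpr-/- replicates 2 and 4, and *Cspg4* does not follow them in axons.

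Of the 16 genes of the Schwann cell and neural crest list, 8 had their highest level in Hnrnpr-/- axonal replicate 4 and the other 8 elsewhere. Among the first were *Gfra3* (70.4 CPM), *Erbb3* (44.0 CPM) and *Cdh19* (10.4 CPM), genes of Schwann cells and their precursors that were named after their values were seen. In the other 15 libraries these reached at most 8.51, 10.1 and 3.78 CPM, in +/+ axonal replicate 1 in each case. Both libraries were among those with the highest *Sox10* in axons (116 and 75.4 CPM), but Hnrnpr-/- axonal replicate 2 had 107 CPM of *Sox10* with 0.0932 CPM of *Gfra3*. Without Hnrnpr-/- axonal replicate 4, the genotype difference of *Sox10* in axons was 0.28.

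Summed over this list, levels were 82.1 to 116 CPM in somatodendritic and 125 to 504 CPM in axonal libraries. The most abundant were *Pmp22*, *Egr2* and *Pou3f1*, which are also known outside Schwann cells, at means of 86.2, 44.8 and 7.42 CPM. Of 15 tested, 3 were higher in +/+ axons (20.0%, against 30.1% of all genes), *Pmp22* (3.08, SE 0.46, adjusted p = 0.000118, edgeR), *Prx* (1.81, SE 0.36, adjusted p = 0.000805, edgeR) and *Mia* (3.29, SE 0.61, adjusted p = 0.000484, edgeR). *Ngfr*, the gene of the p75NTR receptor on which the cells were enriched, was lower in +/+ axons (-2.97, SE 0.64, adjusted p = 0.00144, edgeR). The same 4 genes passed in the same directions in Hnrnpr-/-, and 0 of 15 passed between genotypes in either compartment. Median log2 fold changes between compartments were 0.37 in +/+ and 0.61 in Hnrnpr-/-, and between genotypes 0.24 in somatodendritic and 0.84 in axonal RNA.

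Of 9 ligands, co-receptors and upstream factors of the members, 7 were higher and 1 lower in axonal RNA of +/+, where 30.1% of all genes were higher and 27.4% lower, and the median log2 fold change was 1.37 against 0.07 over all genes. In Hnrnpr-/- 5 were higher and 1 lower, against 27.5% and 26.8% of all genes, with a median of 1.14 against -0.0028. *Pdgfa* and *Pdgfc*, ligands of the receptor that *Pdgfra* encodes, rose by 1.01 (SE 0.25, adjusted p = 0.00311, edgeR) and 1.86 (SE 0.34, adjusted p = 0.000428, edgeR) in +/+, while *Pdgfra* itself had -0.38. *Pdgfa*, the smallest of the 7 increases called in +/+ in this list, was named after its value was seen. *Pdgfrb*, the other PDGF receptor, rose by 3.46 (SE 0.77, adjusted p = 0.00167, edgeR). *Sox9*, a glial regulator, rose by 1.35 (SE 0.28, adjusted p = 0.00114, edgeR), *Erbb2* by 1.37 (SE 0.29, adjusted p = 0.00119, edgeR) and *Nkx6-1* by 2.13 (SE 0.60, adjusted p = 0.00731, edgeR). *Fyn*, a kinase known for its role in the local translation of *Mbp*, was lower (-0.76, SE 0.21, adjusted p = 0.00719, edgeR), as it was in Hnrnpr-/- (-0.71, SE 0.21, adjusted p = 0.0117, edgeR). Between genotypes 0 of 9 passed in either compartment, with medians of 0.20 and -0.20.

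Markers of other cell types also varied between libraries, and their counts in axons stand beside 30.1% of all genes higher and 27.4% lower in +/+ and 27.5% and 26.8% in Hnrnpr-/-. Of the pericyte list, *Pdgfrb* was at 195, 48.4, 74.8 and 458 CPM in +/+ and at 287, 39.3, 93.3 and 278 CPM in Hnrnpr-/- axonal libraries, so +/+ replicate 4 was its highest library, as it was for *Cspg4*. Of the 9 pericyte markers 2 were highest in that library and 7 elsewhere, and *Pdgfrb* alone gave 458 of the 675 CPM summed there. Summed over 9 pericyte markers, levels were 56.5 to 160 CPM in somatodendritic and 78.1 to 675 CPM in axonal libraries, with 2 of 8 genes tested (25.0%) higher and 1 lower in axons of either genotype and *Higd1b* at no more than 0.209 CPM. The 11 fibroblast and meningeal markers summed to 55.9 to 1240 CPM in somatodendritic and 112 to 1690 CPM in axonal libraries, highest in replicate 4 of each group, with 4 of 10 (40.0%) higher in axons in +/+ and 3 of 10 (30.0%) in Hnrnpr-/-. Their part in the *Cspg4* and *Pdgfra* results was not tested.

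The 12 astrocyte and radial glia markers summed to 1340 to 2600 CPM in somatodendritic and 3660 to 6710 CPM in axonal libraries, with 8 of 12 (66.7%) higher in axons in +/+ and 6 of 12 (50.0%) in Hnrnpr-/- and 0 lower. All 6 proliferation genes were higher in axons in both genotypes, with medians of 2.34 and 2.53, and their summed axonal level was lowest in +/+ replicate 4 (251 CPM) and Hnrnpr-/- replicate 1 (124 CPM), the axonal libraries lowest for *Olig1*, *Olig2*, *Sox10*, *Pdgfra* and *Mbp*. The part of these cells in the higher *Olig1* was not tested. Microglia markers (1 of 10, or 10.0%, higher in axons, 0 lower, in either genotype) summed to 667 CPM in Hnrnpr-/- axonal replicate 4 and to 32.9 to 234 CPM elsewhere. Of 7 motoneuron markers tested, 4 were lower in axons in either genotype. Of 5 nuclear RNAs, 3 were higher and 2 lower in +/+, and 1 was higher and 2 lower in Hnrnpr-/-. No gene of any of these lists passed between genotypes.

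**Figure D5:**
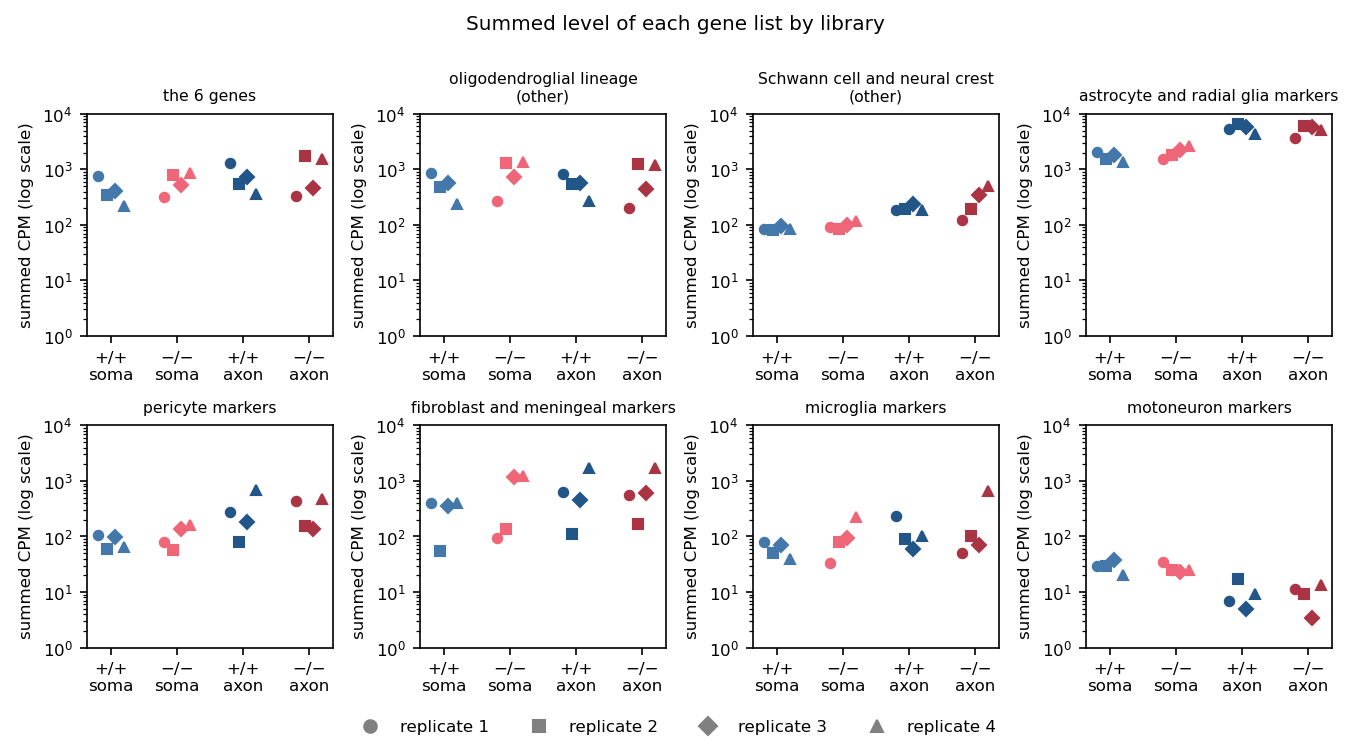
Summed CPM (vertical axis, log scale, the same range in each panel) of the 6 genes and of 7 lists of marker genes in the 4 groups; points are libraries and marker shapes replicate numbers. The 6 genes and the other oligodendroglial genes share their low libraries (+/+ replicate 4, Hnrnpr-/- replicate 1), while motoneuron markers stay below 40 CPM in all 16.

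The genes whose log2 CPM varied most like a member over the 16 libraries were named for each. Values of r are a description, since libraries share compartment and depth. For *Mbp* they included *Mag*, which encodes a myelin protein (r = 0.959), *Tmem88b* (0.939), *Fa2h* (0.924) and *Gm31231* (0.923). For *Sox10* they were *LOC101056015* (r = 0.973), *Bcas1* (0.971), *Bcas1os2* (0.949), *Plcg2* (0.93) and *Scrg1* (0.926). *Olig2* was most like its overlapping partner *Gm52261* (r = 0.97), then *Sapcd2* (0.947), *Sox8* (0.937), *Dll3* (0.934) and *Cerox1* (0.925). Since reads of *Olig2* and *Gm52261* cannot be told apart where they overlap, their r is not a likeness of separately measured genes.

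*Olig1* was most like *Rfxank* (r = 0.958), *Cerox1* (0.949), *Rgcc* (0.93), *Hdhd5* (0.917) and *Gldc* (0.914). *Pdgfra* was most like *Mir7025* (r = 0.954), which lies within it and is likewise not measured separately. It was followed by *A930003O13Rik* (0.947), *Vxn* (0.947), *Papss1* (0.942) and *Armh4* (0.935). *Cspg4* was most like *Sh2b3* (r = 0.928), *Ugdh* (0.914), *Arhgap31* (0.91), *Aqp1* (0.906) and *Pisd* (0.902). Among the members, r was 0.895 for *Olig1* with *Olig2*, 0.88 for *Pdgfra* with *Mbp*, 0.875 for *Olig2* with *Sox10* and 0.844 for *Pdgfra* with *Sox10*. *Cspg4* had r of 0.554 with *Olig1* and 0.361 with *Olig2*, but 0.09 with *Sox10*, -0.092 with *Mbp* and -0.169 with *Pdgfra*.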

How the data were processed

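PolyA RNA was amplified with a SMART-Seq v4 kit, per the labels in a smaller reaction volume for somatodendritic than for axonal samples. Per the labels and the study's methods, reads were trimmed with Cutadapt, aligned with STAR 2.7.2b to GRCm39 and counted on exons with featureCounts 1.6.4 in its reverse-stranded setting, with reads of several places or genes counted as fractions. The values deposited by the authors are these expected counts, neither normalized nor filtered. Replicates are described as biological.

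Counts were rounded, filtered by expression per group, scaled by TMM factors and tested with edgeR 4.0.16 (R 4.3.3) in 1 quasi-likelihood model over 16 libraries with a mean per group. P-values were adjusted by Benjamini and Hochberg over 19964 genes. The standard error is the size of the log2 fold change divided by the root of F. Totals of 22024923 to 34864151 counts per library allow up to 3 counts for a gene listed at 0, covering counting error only. The study used DESeq2, tried here as an alternative (1.42.0) beside RLE factors, library totals, other filters, separate fits of the groups compared, replicate blocks and leaving out each library. The members and lists were chosen with earlier results of these data known. Named are the members, genes of each list past the threshold with at least 1 CPM on average (at most 5 each way), the 3 most abundant of each of the lineage and partner lists, the 5 genes most correlated with each member (log2 CPM, prior count of 2), and others named for single values after those were seen. A gene may stand in more than 1 list, and of the other cell type lists mainly counts are given. Some genes of the lists are not reported here by name.

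Deviations from group means of same-numbered somatodendritic and axonal libraries correlated with r of 0.105 to 0.241 in +/+ and 0.175 to 0.508 in Hnrnpr-/-, each highest with its own number, so replicate numbers were taken to pair the compartments within a genotype. This comes from the data, as no label says it. Between genotypes only 2 of 4 pairs passed 0.1 in either compartment, so no pairing of genotypes was assumed.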

Additional observations from a re-analysis of the deposited data

Results flagged for a closer look

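Of 24 sets of 4 libraries checked (6 genes in 4 groups), 1 held a value far from the other 3. In +/+ axons *Pdgfra* was at 186 CPM in replicate 1 and at 10.6 to 39.9 CPM in replicates 2 to 4, so that the gap above the next library took 0.833 of the range, just past the limit for 4 samples. By chance about 1 in 20 such sets passes this limit. Without that library the axonal against somatodendritic log2 fold change of *Pdgfra* in +/+ went from -0.38 to -1.62, and it did not pass the test (lowest adjusted p over 16 fits that leave out 1 library each 0.133, edgeR).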

How the results depend on the processing

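Of 282 values recomputed for the 6 genes under other settings, 269 kept direction and side of the threshold, 2 newly passed and 11 changed sign, and of 480 recomputed without 1 library each, 431 kept both, 7 lost and 3 gained the call and 39 changed sign. The 2 that newly passed were *Mbp* between compartments with the replicate block within genotype (-1.46 in +/+ and -1.11 in Hnrnpr-/-), which was added after the data were seen. Sign changes touched values that had not passed and remained short of the threshold. Between compartments of Hnrnpr-/- these were *Pdgfra* with library totals (0.019) and *Sox10* with the block within genotype (-0.11). For the difference of the genotype effects between compartments they were *Olig1* (0.0126 with DESeq2 and betaPrior shrinkage, 0.0122 with DESeq2 by default, 0.012 with RLE factors and 0.0017 without a filter), *Olig2* (0.0041), *Cspg4* (0.0037) and *Sox10* (-0.026) with the replicate number across genotypes as a block, and *Pdgfra* (-0.24) and *Sox10* (-0.47) with the block within genotype. Without single libraries, the values between compartments ranged from -1.62 to 0.0825 for *Pdgfra* and from -0.053 to 1.13 for *Sox10* in +/+ and from -1.32 to 0.24 for *Pdgfra* in Hnrnpr-/-. Between genotypes in axons they ranged from -0.036 to 0.61 for *Olig1*, from -0.57 to 1.83 for *Pdgfra* and from -0.41 to 0.56 for *Cspg4*. For the difference of the effects they ranged from -0.30 to 0.35 for *Olig1*, -0.40 to 0.50 for *Olig2*, -0.93 to 1.47 for *Pdgfra*, -0.56 to 0.39 for *Cspg4* and -0.44 to 0.82 for *Sox10*. Over all genes, 2 differed between genotypes in axons, against 5 with DESeq2 under either setting, 1 with a fit of the axonal groups only, 1 with the replicate block across genotypes and 1 to 3 without single libraries. The difference of effects had 0 genes, 1 with DESeq2 by default, and 265 had an unadjusted p below 0.05. Genes called between compartments numbered 10198 to 11950 in +/+ and 9221 to 11714 in Hnrnpr-/- without single libraries, and 1 was called between genotypes in somatodendritic RNA in each such fit. Scaling by library totals moved the median over all genes from 0.07 to 0.22 in +/+ and from -0.0028 to 0.11 in Hnrnpr-/-. The replicate blocks changed no other call of the 6 genes. The cause of these changes was not tested. The lowest count of any of the 6 genes in a library was 57.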
